A study of Mus musculus with 12 samples.

Results

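Rpph1 is the mouse gene for the RNA subunit of RNase P, the enzyme that trims precursor tRNAs. Its probe was found by a rule: of the array's probes that carry a RefSeq non-coding accession assigned to Rpph1, the probe is chosen by its mean level over the 12 arrays, the highest being kept. The array held 1 such probe, printed as 1 spot, so no measured value decided between probes. It is 1 of 72515 features tested and 1 of 2514 tested features with a gene name. The gene was chosen for description with earlier results of these data known, and the p-values below describe this gene and give no independent support to its pattern.

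RNA was taken from snap-frozen spleens of female BALB/c mice and hybridised to single-colour Agilent arrays. The labels give an age of 6 weeks for the day 14 and day 28 groups alike, so a difference in age at sampling was not checked. The OVA mice had received 3 intraperitoneal injections of OVA (ovalbumin, an egg-white protein used to sensitise mice) at 2 mg/kg, on days 1, 3 and 5, and the control mice normal saline. The groups were OVA day 28 (n = 4), control day 28 (n = 2), OVA day 14 (n = 4) and control day 14 (n = 2), named by the day on which the spleen was taken. The labels do not say whether each array held the spleen of a single mouse, so p-values measure the spread between these samples, which may in part be technical. The arrays lay on 3 slides: all 4 controls on slide 1, the OVA arrays of day 14 on slide 2 and those of day 28 on slide 3. Slide and group therefore cannot be told apart wherever an OVA group is compared, and only the controls share a slide with each other. The 37 spleen cell type markers looked for (B, T and myeloid cells, erythroid cells and others) had no named probe, so the cell makeup of the spleens was not checked.

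RNase P cuts the leader sequence from precursor tRNAs, and its RNA subunit is the catalytic part, held by a set of proteins. The gene is transcribed by RNA polymerase III from promoter elements that lie upstream of the transcribed bases, and it stands head to head with Parp2, a gene for a DNA-damage-responsive poly(ADP-ribose) polymerase. The RNA has no long poly(A) tail, and the labels name an amplification kit but not its primer, so how this RNA was labelled is not known here.

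The RefSeq promoter window of Parp2 holds the shared start region, and it is shown because it is the stretch of genome from which the measured RNA begins. It spans chr14:50807666-50807965 on the plus strand of GRCm38.p6 and is printed in the direction of Parp2. Capitals mark the 106 bases, of the 325 in the gene, that RefSeq assigns to Rpph1, and lower case the bases between the genes and the start of Parp2.
Parp2 promoter window: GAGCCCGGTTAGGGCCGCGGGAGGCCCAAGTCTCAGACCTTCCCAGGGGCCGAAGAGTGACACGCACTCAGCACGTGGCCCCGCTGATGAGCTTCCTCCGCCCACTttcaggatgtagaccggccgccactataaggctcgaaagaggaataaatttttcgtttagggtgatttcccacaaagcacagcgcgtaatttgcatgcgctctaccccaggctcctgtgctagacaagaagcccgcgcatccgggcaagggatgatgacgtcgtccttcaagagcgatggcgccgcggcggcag
The octamer motif, searched as ATTTGCAT and its reverse complement ATGCAAAT, began 88 bases beyond the Rpph1 end, at position 195 of the window. It occurred in 570 of 32851 promoter windows of that table (1.74%). Octamer motifs of this kind are known as distal elements of such RNA polymerase III promoters, and the match is a description of the letters only.

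The spleens of OVA mice at day 28 had the lowest scaled level of Rpph1 among the 4 groups. Levels are log2 processed signal minus the array's 75th percentile over non-control spots. The OVA arrays of day 28 stood at 5.56, 5.43, 5.53 and 5.37, against 5.74 and 5.93 on the control arrays of that day. The OVA arrays of day 14 stood at 5.84, 5.94, 5.92 and 5.89, against 5.62 and 5.65 on the control arrays of day 14. On this scale every OVA array of day 28 lay below all other 8 arrays, and every OVA array of day 14 lay above the day 14 controls. Means were 5.47 ± 0.09 (SD, n = 4) for OVA day 28, 5.83 ± 0.14 (SD, n = 2) for control day 28, 5.90 ± 0.04 (SD, n = 4) for OVA day 14 and 5.64 ± 0.02 (SD, n = 2) for control day 14. From high to low the order was OVA day 14, control day 28, control day 14, OVA day 28. OVA day 14 and control day 28, neighbours in that order, overlapped, the control groups are compared below, and control day 14 against OVA day 28 was not tested. In spleen, fewer cells that make an RNA and less of the RNA per cell cannot be told apart.

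**Figure D1:**
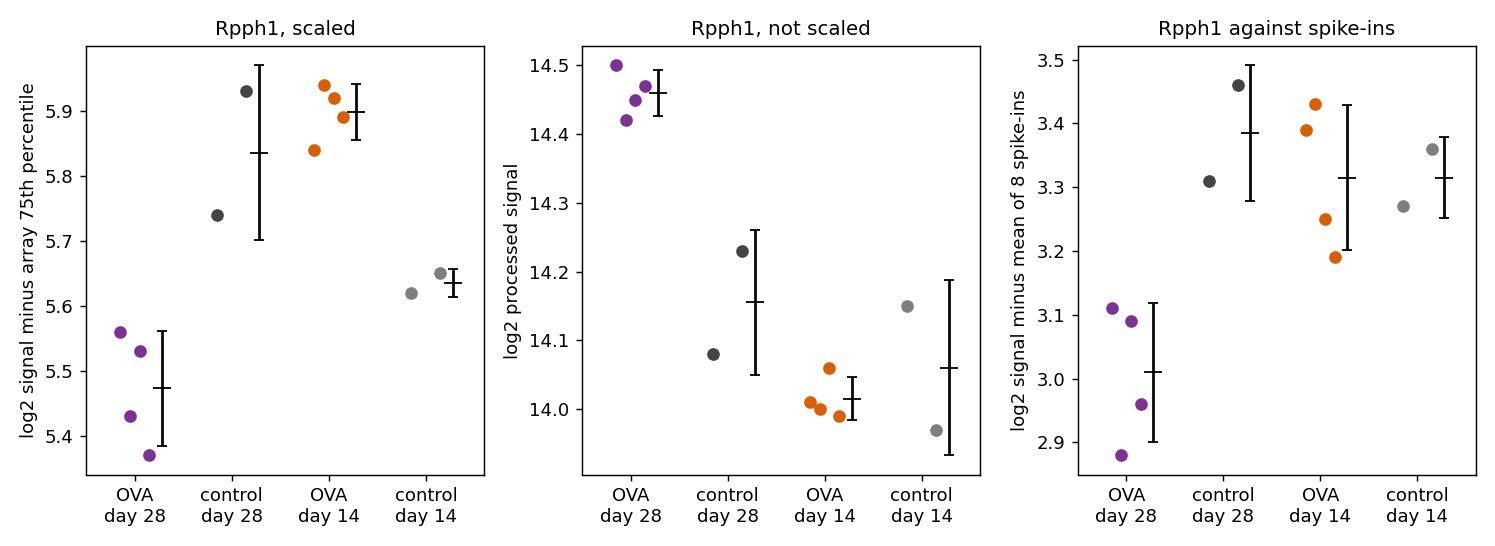
Level of Rpph1 on each array (points) with the group mean and SD (bars beside them), as log2 signal minus the array's 75th percentile (left), log2 signal without scaling (middle) and log2 signal minus the mean of 8 spike-ins (right); n is 4 for each OVA group and 2 for each control group. The OVA arrays of day 28 are the lowest on the left and right and the highest in the middle, where they reach 14.50.

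The signal itself went the other way at day 28, and the arrays differed in brightness. The unscaled processed signal of Rpph1 was 23163, 21901, 22319 and 22760 units on the OVA arrays of day 28, against 17368 and 19259 on the day 28 controls. At day 14 it was 16483, 16350, 17051 and 16317 units on the OVA arrays, against 18150 and 16070 on the controls. The scanner program's own error was 10% of the signal at each of these spots, and the local background was at most 25 units, so the spot was far above background on all 12 arrays. No non-control spot was saturated.

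The 75th percentile that scales each array was 484 to 549 units on the OVA arrays of day 28 and 316 to 326 on the day 28 controls. It was 267 to 288 units on the OVA arrays of day 14 and 320 to 368 on the day 14 controls. All 8 E1A spike-ins (RNAs added in fixed amount) that were well above background everywhere also read higher, unscaled, on the OVA arrays of day 28 than on the day 28 controls, by 0.25 to 1.17 on the log2 scale. Rpph1 rose by less than the array as a whole: without scaling its log2 difference between the OVA and control arrays of day 28 was 0.30, while the median over all features was 0.63. Between the OVA arrays of day 28 and day 14 it was 0.45 without scaling, against a median of 0.81. The lower scaled level at day 28 is thus a level relative to the other features of the same arrays.

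A rank within each array needs no scaling. Between 0.951% and 1.13% of non-control spots were brighter than the Rpph1 spot on the OVA arrays of day 28, against 0.744% and 0.865% on the day 28 controls. The shares were 0.711% to 0.849% on the OVA arrays of day 14 and 0.835% to 0.846% on the day 14 controls. By rank, the OVA arrays of day 28 stood below all other 8, whereas the OVA and control arrays of day 14 overlapped.

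The first comparison asked how OVA and saline spleens differed at day 28. Rpph1 was 1.28-fold lower in OVA spleens, a log2 difference of -0.36 ± 0.10 (SE) with a 95% interval of -0.57 to -0.15 (adjusted p = 0.0317, limma). At this threshold, an adjusted p under 0.05, 14.1% of all features passed in that comparison, so a call alone does not set Rpph1 apart, and 14.1% of features had a lower difference. OVA and control arrays did not overlap, with a gap of 0.18 on the log2 scale. How many of all features also showed no overlap was not counted, here or in the comparisons below. The lower call held in 13 of 26 alternatives, did not pass in 12, and in the one without scaling passed with the opposite sign (0.30, adjusted p = 0.0158). Of the 26, 1 was chosen after seeing the data. Those that held include every fit without a day 14 array, which is not in the groups compared and left the difference at -0.36. Of the fits without an OVA day 28 array, only that without replicate 1 held. Among those that did not pass were the fit without control day 28 replicate 2 (log2 difference -0.26, adjusted p = 0.215) and without control day 28 replicate 1 (-0.46, adjusted p = 0.0551). With the arrays scaled to the spike-ins the difference was -0.38 (adjusted p = 0.0708). Single spike-ins, scaled to the percentile, differed by -0.41 to 0.51 in this comparison, and 3 of 8 were higher on the OVA arrays. Their median was -0.05, and their range includes the difference of Rpph1 near its low end.

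Set against the OVA spleens of day 14, those of day 28 had 1.34-fold less Rpph1 relative to the array's percentile. The log2 difference was -0.42 ± 0.08 (SE), with a 95% interval of -0.60 to -0.25 (adjusted p = 0.00231, limma), where 34.1% of all features passed. The median over all features was -0.06, and 26% of features differed by more in either direction. The gap between the groups was 0.28 on the log2 scale. The lower call held in 25 of 26 alternatives, and in the one without scaling the difference passed with the opposite sign (0.45, adjusted p = 0.000238). With spike-in scaling the difference was -0.31 (adjusted p = 0.0371). The 8 spike-ins, scaled to the percentile, differed here by -0.45 to 0.19 with a median of -0.09, and 3 were higher at day 28. That range includes the difference of Rpph1 near its low end.

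At day 14 the comparison of OVA with saline spleens gave a log2 difference of 0.26 ± 0.10 (SE), with a 95% interval of 0.05 to 0.47, which did not pass adjustment (adjusted p = 0.256, limma). Only 0.0676% of all features passed there. OVA and control arrays did not overlap on the percentile scale, but relative to the spike-ins they did, at 3.39, 3.43, 3.25 and 3.19 on the OVA arrays and 3.27 and 3.36 on the controls. The difference was 0.00 with spike-in scaling and 0.09 with quantile normalization. All 8 spike-ins, scaled to the percentile, were higher on the OVA arrays of day 14 than on the controls, by 0.12 to 0.39.

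Because the gene has a single spot, the 361 non-control spots within 20 rows and 4 columns of it were read as well, a check chosen after seeing the data. Their median deviation from their own means over the 12 arrays was -0.12 to -0.02 on the OVA arrays of day 28 and -0.06 to -0.04 on the controls of that day. It was 0.07 to 0.12 on the OVA arrays of day 14 and -0.12 to -0.05 on the day 14 controls. Relative to the percentile, the spots around it were thus brighter on slide 2, in the same direction as Rpph1. Over all 97095 features without a filter, the median log2 difference was -0.126 for OVA day 28 against OVA day 14. For OVA against control at day 14 it was 0.064. The shift has the same direction over the whole array and was not shown to be particular to the area. With these deviations subtracted, the log2 difference of Rpph1 was -0.33 for OVA against control at day 28 (adjusted p = 0.0429), -0.26 for OVA day 28 against OVA day 14 (adjusted p = 0.0276) and 0.08 for OVA against control at day 14 (adjusted p = 0.737). The difference between OVA and control kept most of its size at day 28 and did not at day 14. Between OVA days it shrank from -0.42 to -0.26. The subtraction was made for Rpph1 alone, and the values of all other features were left as they were.

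**Figure D2:**
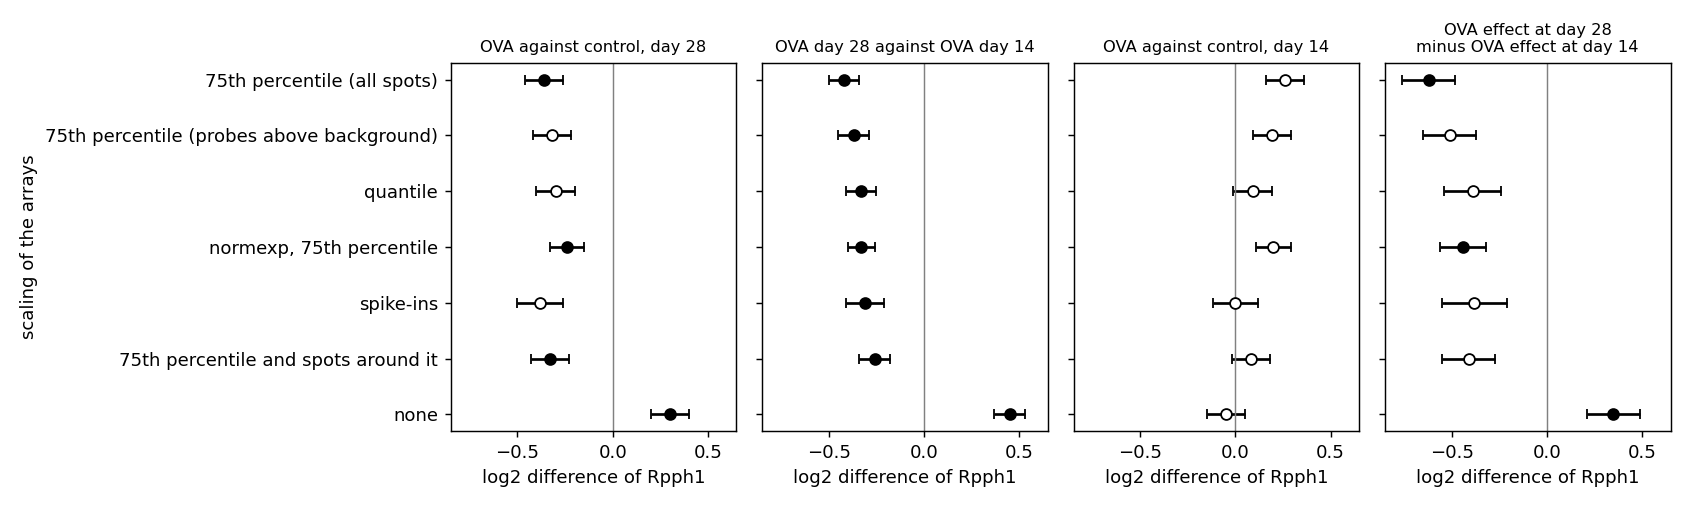
Log2 difference of Rpph1 (x axis, point with its SE) under 7 ways of scaling the arrays (y axis) in 4 comparisons; filled points passed an adjusted p of 0.05 by limma. For OVA against control at day 28 the scaled values lie between -0.38 and -0.24 and the unscaled value at 0.30, and at day 14 they lie between 0.00 and 0.26 with -0.05 unscaled.

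Control spleens of day 28 and day 14 lay on the same slide, so slide does not enter that comparison. Their positions on it differed, 1 and 2 for day 14 and 3 and 4 for day 28. Among the controls, day and position therefore cannot be told apart. Rpph1 differed by 0.19 ± 0.11 (SE, log2), with a 95% interval of -0.05 to 0.44, and did not pass (adjusted p = 0.578, limma). Of all features, 0.00138% passed. On the percentile scale the 2 arrays of each group did not overlap, by 0.08, whereas relative to the spike-ins they did, at 3.31 and 3.46 on day 28 and 3.27 and 3.36 on day 14. The difference was 0.07 with spike-in scaling and 0.06 with quantile normalization. On the percentile scale, where the difference was 0.19, the control arrays of day 28 stood about as far from each other, at 5.74 and 5.93.

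The OVA effect at day 28 minus that at day 14 was -0.62 ± 0.14 (SE, log2), with a 95% interval of -0.92 to -0.32 (adjusted p = 0.0396, limma). In this comparison 2.95% of features passed, the median over all features was -0.07 and 5.36% had a lower value. This term adds up the lower scaled level at day 28 and the higher one at day 14, and it sets slide 3 against slide 2. The call held in 6 of 25 alternatives, and in the one without scaling the value passed with the opposite sign (0.35, adjusted p = 0.0358). With spike-in scaling, under which the day 14 difference was 0.00, the value was -0.38 (adjusted p = 0.233). For the 8 spike-ins, scaled to the percentile, this term ran from -0.68 to 0.12 with a median of -0.23, and 1 was above 0. With the spots around Rpph1 taken into account it was -0.41 (adjusted p = 0.113). Leaving out single arrays ended the call in 10 of 12 fits, with values from -0.71 to -0.52 and adjusted p up to 0.122.

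Other genes of the tRNA-processing pathway could not be set beside Rpph1. None of the 13 other genes listed for RNase P and the related RNase MRP (Rmrp and the Pop and Rpp protein genes), none of 11 tRNA-processing genes, none of 31 genes of the RNA polymerase III machinery and none of 17 genome neighbours of Rpph1, Parp2 among them, had a named probe. Of the 14 other RNA polymerase III transcripts listed, the array names a probe for Bc1, a transcript known from rodent neurons, which was well above background on 0 of 12 arrays. Of 24 further small nuclear and structural RNAs, Neat1, the RNA scaffold of nuclear paraspeckles, had a probe that was likewise above background on 0 arrays, and Scarna13 was measured.

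Scarna13, a guide RNA for modifying spliceosomal RNAs in Cajal bodies, gave no difference that passed on the processed signal scaled to the percentile. It stood at -1.42, -1.80, -2.08 and -1.82 on the OVA arrays of day 28 and at -1.48 and -1.67 on the day 28 controls. At day 14 it stood at -1.71, -1.41, -1.70 and -1.23 on the OVA arrays and at -1.46 and -1.73 on the controls. The groups overlapped on both days. Its log2 difference for OVA against control was -0.20 at day 28 (95% interval -0.61 to 0.21, adjusted p = 0.504, limma) and 0.09 at day 14 (-0.32 to 0.49, adjusted p = 0.869). For OVA day 28 against OVA day 14 it was -0.27 (-0.60 to 0.06, adjusted p = 0.193), and this one passed with normexp background correction (-0.34, adjusted p = 0.0148) and, with the opposite sign, without scaling (0.60, adjusted p = 0.0041), where the interaction passed as well (0.67, adjusted p = 0.0425). The interval at day 28 includes the difference seen in Rpph1, so these values do not show that both RNAs differ or that they do not.

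Genes whose levels ran most like those of Rpph1 over the 12 arrays were found by centring each profile on its own mean and taking the root mean square of its differences from Rpph1. A constant added to an array cancels in this measure. Among 2513 other named genes the nearest were the lncRNA genes 1700084E18Rik (0.0702 log2 units), Gm11205 (0.071), CJ186046Rik (0.0719), Gm39852 (0.0767) and Gm33124 (0.0812). The median over all named genes was 0.293, and Rpph1 itself varied by 0.193 around its mean, which is also its distance from a flat profile. All arrays of a slide share their slide, and the likeness is a description.

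**Figure D3:**
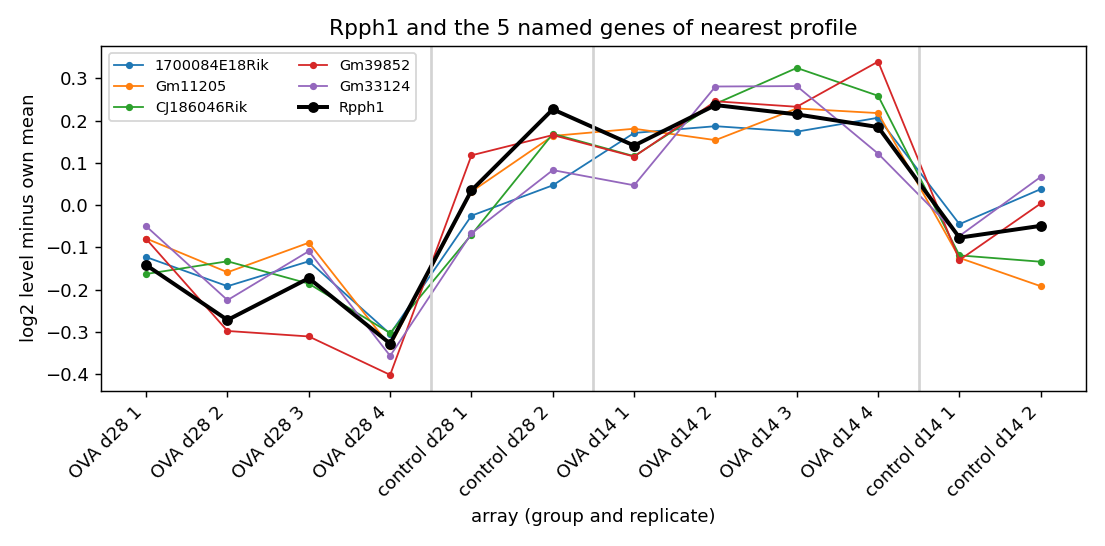
Log2 level minus the gene's own mean (y axis) on each of the 12 arrays (x axis, lines join the values of a gene and mark no order of replicates) for Rpph1 (black) and the 5 named genes of nearest profile. All 6 profiles are high on the OVA arrays of day 14 and low on those of day 28.

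These 5 genes had the same signs as Rpph1 in the comparisons with the OVA arrays. For OVA day 28 against OVA day 14 their log2 differences were -0.37 for 1700084E18Rik, -0.36 for Gm11205, -0.43 for CJ186046Rik, -0.51 for Gm39852 and -0.37 for Gm33124, and all 5 passed (adjusted p = 0.0131 or lower, limma). For OVA against control at day 28 only Gm39852 of the 5 passed (-0.41, adjusted p = 0.0313). They were picked for this likeness, so their values are no support for that of Rpph1. With quantile normalization 1700084E18Rik was still the nearest, but Gm11205 moved to place 70 and CJ186046Rik to place 27.

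Among 163 genes with plain symbols (leaving out predicted-gene, Rik and clone names), the nearest were Rp2 (0.102), Celrr (0.106), Meg3 (0.113), Hikeshi (0.131) and Tmem181c-ps (0.132). The probes of Rp2, whose product acts in ciliary transport of lipid-modified proteins, and of Hikeshi, a nuclear import carrier gene, are for non-coding transcripts. Meg3 is an imprinted lncRNA and Tmem181c-ps a transcribed pseudogene. For OVA against control at day 28 Celrr passed (-0.47, adjusted p = 0.0167, limma) and the 4 others did not: Rp2 differed by -0.35, Meg3 by -0.16, Hikeshi by -0.34 and Tmem181c-ps by -0.35.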

How the data were processed

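Spleen RNA of 12 samples was measured on single-colour arrays. Per the file headers, the authors' scanner files were made with Agilent Feature Extraction 11.5.1.1, whereas the submitters' processing notes name version 9.1. The deposited processed signal is an intensity on a linear scale, background-corrected by that program and not normalized between arrays. The authors also deposited log2 values of catalogue probes, which hold no Rpph1 probe and served only for counts of features. Other columns of the deposited files give spot flags.

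Here log2 processed signal minus the array's 75th percentile was averaged over the spots of a probe, without control spots and flagged outliers. Probes were named by RefSeq accession through a table of GRCm38.p6 (4658 of 13019 matched). Features were tested if some group had them well above background on all its arrays. All 12 arrays entered 1 limma model (limma 3.58.1, R 4.3.3, 8 residual degrees of freedom) with Benjamini-Hochberg adjustment over 72515 features. The model was also run on simulated data with independent noise and no slide difference, which does not test the calls reported here. No 2 arrays were identical. Genes named follow a rule: Rpph1, measured members of the lists, and the 5 nearest profiles of all named genes and of plain symbols. The gene and the lists were chosen with earlier results of these data known. The median signal stood in for the mean signal, which was not used here, in the normexp alternative. With 2 control arrays a day, the number of arrays limits how precise a difference can be.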

Additional observations from a re-analysis of the deposited data

Results flagged for a closer look

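The OVA effect on Rpph1 differed between days by the interaction term, with a log2 value of -0.62 (adjusted p = 0.0396, limma). On the percentile scale the 4 OVA arrays of day 28 lay below both controls of their day, and the 4 OVA arrays of day 14 above both of theirs. Relative to the spike-ins the arrays of day 14 overlapped, and the value was -0.38 and did not pass (adjusted p = 0.233). Each OVA group lay on a slide of its own, so day and slide cannot be told apart. The spots around the Rpph1 spot were also brighter on the slide of the day 14 OVA arrays, and with those spots subtracted the value was -0.41 (adjusted p = 0.113). That brightness was not shown to be particular to the area.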

How the results depend on the processing

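For OVA against control at day 28 the lower Rpph1 call held in 13 of 26 alternatives. These include every fit without a day 14 array, which is not in the groups compared. It did not pass with a 75th percentile taken from probes bright on all 12 arrays (-0.32, adjusted p = 0.0507), quantile normalization (-0.30, 0.0747), spike-in scaling (-0.38, 0.0708), no filter (-0.36, 0.0588), only the groups compared (-0.36, 0.0648), the replicate block (-0.35, 0.0832) or array position as a block (-0.37, 0.0999). The interaction did not pass in those that could be run for it (-0.51, 0.072 with that percentile, -0.39, 0.151 with quantile, -0.38, 0.233 with spike-ins, -0.62, 0.0833 without filter, -0.62, 0.0806 with the replicate block, -0.63, 0.18 with position), nor with array weights (-0.60, 0.0852) or the surrounding spots subtracted (-0.41, 0.113). The cause was not tested. Without scaling the sign was opposite, and all but the day 14 value passed: 0.30 for OVA against control at day 28, 0.45 for OVA day 28 against day 14, -0.05 for OVA against control at day 14 and 0.35 for the interaction. Leaving out single arrays gave -0.46 to -0.26 at day 28, -0.45 to -0.39 between OVA days, 0.24 to 0.28 at day 14, 0.10 to 0.29 between control days and -0.71 to -0.52 for the interaction. The day 28 call was lost without either control of that day or without OVA day 28 replicate 2, 3 or 4.

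Replicate numbers did not pair the samples: same-numbered OVA arrays correlated at -0.03, -0.05, -0.02 and 0.08, OVA and control arrays at -0.18 and 0.16 on day 28 and 0.07 and 0.32 on day 14. Under the replicate block the count was 6652 features at day 28 (10191 without it) and 391 for the interaction (2138). Over the alternatives counts ran from 1976 to 54437 at day 28, 12563 to 66945 between OVA days (24708 as reported), 0 to 4277 at day 14 (49), 0 to 1562 between control days (1) and 0 to 59502 for the interaction. The 12563 is of 31719 features tested (authors' values), the 24708 of 72515. The share that was higher was 71.5% with spike-ins and 19.5% with normexp between OVA days (43.9% as reported). It was 7.24% with spike-ins at day 14 (91.8%) and 22.9% with normexp at day 28 (52.9%). For the interaction it was 97.4% with spike-ins and 14.8% with normexp (53.9%). Scarna13 changed sign without scaling (0.46 at day 28, 0.60 between OVA days, -0.22 at day 14, -0.08 between control days, 0.67 interaction), with spike-ins (-0.17 at day 14, -0.10 between control days), and between control days with the other percentile (-0.04) and normexp (-0.03). With 1 spot, single spots or other probes of Rpph1 could not be compared, and the deposited values lack it.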
